A study of Mus musculus with 8 samples.

Results

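Mediator is a large protein complex that bridges DNA-bound transcription factors and RNA polymerase II. Its core is divided into a head and a middle, which contact the polymerase, and a tail, which many activators bind. A separate kinase module docks on the core reversibly, holds a cyclin-dependent kinase with its cyclin, and competes with the polymerase for the core. In macrophages, as in other cells, the complex is used at genes that respond to signals, and MED1, the middle subunit best known for binding nuclear receptors, is the subunit targeted in the mice studied here.

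The 33 Mediator genes described here are all rows of the deposited expression table whose symbol is one of the known subunits, out of 23735 loci. They comprise 7 head, 9 middle, 10 tail and 7 kinase module genes. Sources differ on whether Med27, Med28, Med29 and Med30 belong to the tail or the head, and they are counted in the tail. RNA was sequenced from peritoneal macrophages of C57BL/6J mice that were 8 weeks old. The 4 groups were WT (MED1fl/fl, with loxP sites at the gene) without treatment, WT with LPS, MED1-/- (MED1ΔMac) without treatment, and MED1-/- with LPS. LPS, the bacterial cell wall compound that macrophages sense through TLR4, was given at 50 ng/mL for 6 h. Each group had 2 libraries, labelled A and B. The labels do not say whether these came from separate animals, so the p-values measure only the spread between these libraries, which may be technical. No source used here gives the part of the gene between the loxP sites, the Cre driver behind the ΔMac allele or its efficiency.

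The libraries held about 6.85 to 14.1 M mapped reads, as estimated from the steps between low values. Il1b, an inflammatory cytokine gene, stood at 9.77 to 44.9 RPKM (reads scaled to transcript length and to the mapped reads of the library) in the 4 untreated libraries and 2693 to 11511 RPKM in the 4 LPS libraries. All 6 macrophage markers were above 1 RPKM in every library. Their sum was 31618 and 35296 RPKM in WT untreated A and B, 19565 and 14940 in WT LPS A and B, 11297 and 17853 in MED1-/- untreated A and B, and 7154 and 6152 in MED1-/- LPS A and B. It was thus lower with LPS and lower in MED1-/-. Most of it was Lyz2, the macrophage lysozyme gene, which ran from 4547 to 32317 RPKM and was lower in MED1-/- under both treatments. Without treatment, Csf1r, Emr1, Cd68, Itgam and Gata6 each overlapped between genotypes. With LPS, Csf1r, Itgam and Gata6 were lower in MED1-/-, Emr1 was slightly higher, and Cd68 overlapped. The part of these differences in the results on Mediator genes was not tested. B cell markers were present too: the 4 summed to 378 to 590 RPKM in the WT libraries, 535 in MED1-/- untreated A, and 918 to 1586 in the other 3 MED1-/- libraries. The 4 mast cell markers summed to 0.712 and 0.249 RPKM in the untreated A libraries of WT and MED1-/-, to 17.9 and 2.46 in their LPS A libraries, and to 46.9 to 120 in the 4 B libraries. The 4 T cell markers summed to 5.23 to 43.1 RPKM, highest in MED1-/- untreated B. In bulk RNA, fewer cells of a type and less RNA per cell cannot be told apart.

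Med1, the targeted gene, was read over its whole locus (mm9, chromosome 11, 98013468 to 98054607, minus strand). It stood at 21.7 and 24.8 RPKM in WT untreated A and B and at 24.7 and 21.6 RPKM in WT LPS A and B. In the libraries labelled MED1-/- it stood at 17.6 and 23.4 RPKM without treatment and at 24.4 and 20.3 RPKM with LPS. The genotypes overlapped, although the MED1-/- library was the lower in each of the 4 pairs of the same letter and treatment. Of all loci tested, 5.3% were lower in all 4 pairs. The difference between MED1-/- and WT, averaged over treatments on the log2(RPKM + 1) scale, was -0.12 (SE 0.15, 95% interval -0.47 to 0.24, adjusted p = 0.999 by limma). With a value summed over the locus, any transcripts that lack a deleted part would be counted with intact ones, so the deletion itself was not measured. Why the level was close to that of WT was not tested.

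The tested members had a median level of 11.9 RPKM, beside 11.99 RPKM over all 11272 loci tested. By module the median level was 14.6 RPKM in the head, 11.8 in the middle, 10.98 in the tail and 13.8 in the kinase module. Highest were Med10 of the middle at a mean of 35.1 RPKM, Med15, a tail subunit that SREBP factors bind, at 33.2 RPKM, Med11 of the head at 31.7 RPKM, and Med21 of the middle at 29.96 RPKM. Lowest of the tested members were the head subunit Med18 at 2.82 RPKM, the middle subunit Med26, which recruits elongation factors, at 3.07 RPKM, and Med31 at 3.87 RPKM. The library values of the 4 highest overlapped, and so did those of the 3 lowest.

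**Figure D1:**
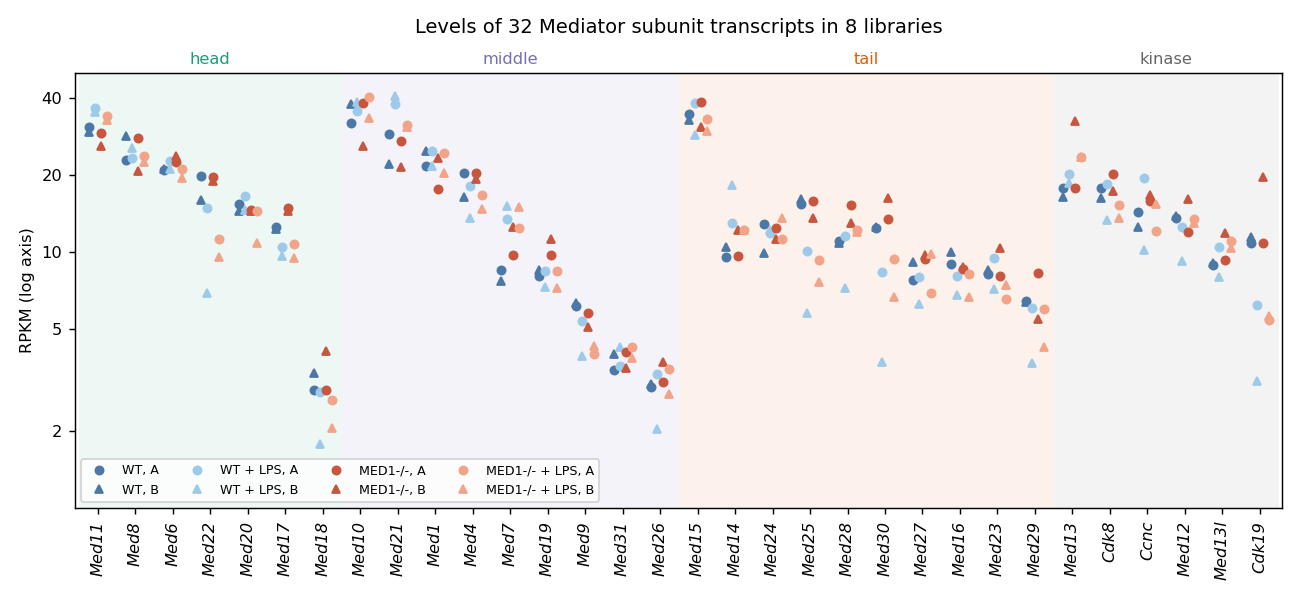
Level of the 32 tested Mediator genes in RPKM (log axis) in the 8 libraries, arranged by module, with a point per library. Med10, Med15, Med11 and Med21 lie highest, Med18, Med26 and Med31 lowest, and Cdk19 and Med30 spread the most between libraries.

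Only Med12l, a paralog of the kinase module subunit Med12, missed the filter of 1 RPKM in 2 libraries. It was listed at 0 in WT untreated A, and at 0.00636 to 0.0603 RPKM in the other 7 libraries, which corresponds to at most about 5.52 reads. Its level was thus not distinguishable between groups at this depth. Med12 stood at 13.5 and 13.8 RPKM in WT untreated A and B and at 12.5 and 9.21 RPKM in WT LPS A and B. In MED1-/- it stood at 11.99 and 16.1 RPKM untreated and at 13.5 and 13.0 RPKM with LPS. Med12 is the subunit through which the kinase is activated. Its 4 LPS libraries overlapped the 4 untreated ones, and the genotypes overlapped too, although WT LPS lay below WT untreated. The other 32 members were tested, and the ratio of the highest to the lowest of the 8 libraries ran from 1.22 for Med6 to 6.26 for Cdk19, with a median of 1.58.

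LPS was compared with no treatment as the mean of both genotypes. Cdk19, Med30, Med25 and Med22 fell, and Med7 and Med21 rose. These 6 of 32 tested members (18.8%) compare with 30.3% of all 11272 loci called in this comparison, 8.46% higher and 21.8% lower, so the share of members called was below the background. The median difference was -0.15 over the members and -0.26 over all loci tested. With LPS 10 members had a higher and 22 a lower value, a split not counted over all loci. At an unadjusted p under 0.05 there were 7 members, beside 44.8% of loci. Median-ratio scaling, which sets the typical locus to no change, raised the median over all loci by 0.26. Under that scaling 7 members were called, with 4 higher (Med7, Med21, Med14 and Med11) and 3 lower (Cdk19, Med30 and Med25). Calls over all loci then divided into 1551 higher and 1488 lower in place of 954 and 2456, 24 of 32 members had a higher value, and 14 members, none of them called, changed sign.

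**Figure D2:**
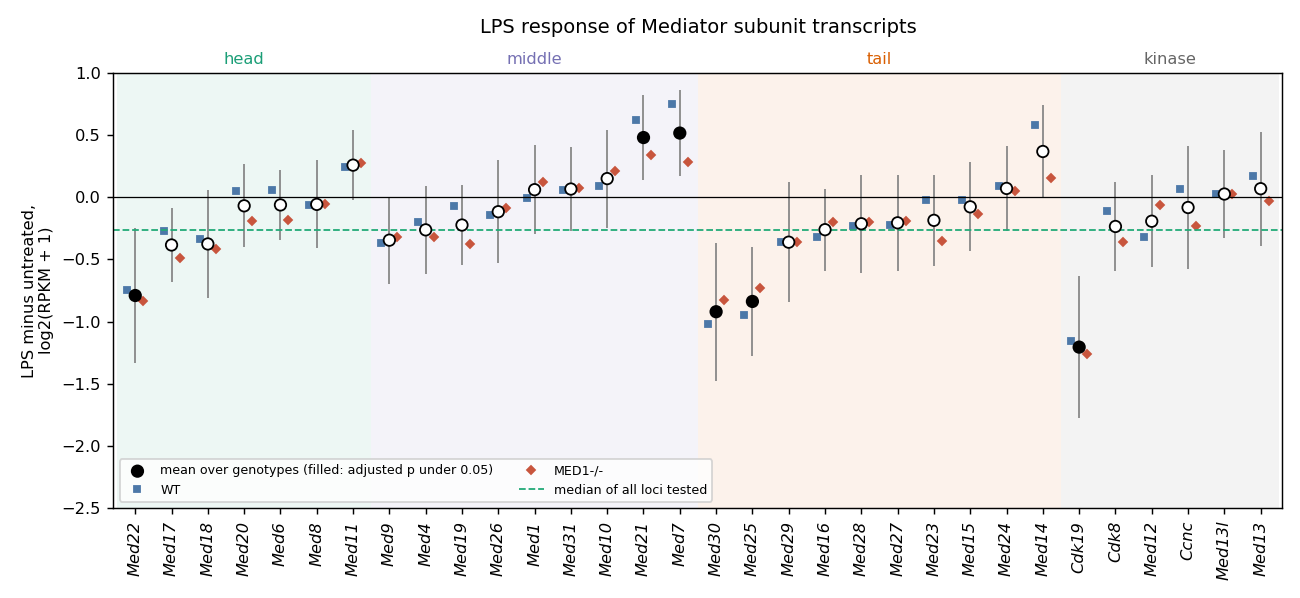
Difference between LPS and untreated libraries in log2(RPKM + 1) for the 32 tested members, by module. Circles are the mean over genotypes with 95% intervals (filled where adjusted p is under 0.05), squares WT and diamonds MED1-/-, and the dashed line is the median of all loci (-0.26). The 4 filled circles below 0 are Cdk19, Med30, Med25 and Med22, and those above are Med7 and Med21.

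In the kinase module 1 of 6 tested members was called, beside 30.3% of all loci. Cdk19, which encodes the less studied of the alternative Mediator kinases, stood at 10.8 and 11.5 RPKM in WT untreated A and B and at 6.23 and 3.13 RPKM in WT LPS A and B. In MED1-/- it stood at 10.8 and 19.6 RPKM untreated and at 5.43 and 5.62 RPKM with LPS. Every LPS library was below every untreated library, and MED1-/- untreated B was the highest. Cdk19 fell by 1.21 on the log2 scale (SE 0.24, adjusted p = 0.0130), and of the 8 fits that each left out a library, only the fit without MED1-/- LPS B lost the call (adjusted p = 0.0507). The gene lies on mm9 chromosome 10 from 40069114 to 40203624, plus strand, and overlaps 4930520K10Rik on the opposite strand.

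Cdk8, the paralogous kinase, stood at 17.8 and 16.3 RPKM in WT untreated A and B, 18.4 and 13.3 in WT LPS A and B, 20.2 and 17.3 in MED1-/- untreated A and B, and 15.3 and 13.6 in MED1-/- LPS A and B. The untreated and LPS values of Cdk8 overlapped, and its difference was -0.24 (SE 0.15, adjusted p = 0.265) and turned to 0.05 under median-ratio scaling. Because values are per length, the paralogs can be set against each other within a library, where scaling between libraries cancels. Cdk19 made up 37.8%, 41.3%, 34.9% and 53.1% of the summed RPKM of Cdk19 and Cdk8 in WT untreated A and B and MED1-/- untreated A and B. With LPS its share was 25.3% and 19.1% in WT A and B and 26.2% and 29.3% in MED1-/- A and B. The shares with and without LPS did not overlap.

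The log2 ratio of Cdk19 to Cdk8 was -0.49 ± 0.47 (SD, n = 4) without LPS and -1.60 ± 0.35 (SD, n = 4) with it. The difference of -1.12 had p = 0.0286 in a two-sided exact permutation test, the smallest that 4 against 4 libraries can give, and 0.114 after Benjamini-Hochberg adjustment over 4 such tests. That test ignored the letters. The ratio was lower with LPS in 4 of 4 pairs of the same genotype and letter, and permuting within pairs gave an exact p = 0.125, the smallest that 4 pairs allow (adjusted 0.5). Between genotypes the same ratio differed by 0.35 (exact permutation p = 0.543, adjusted 0.724). For the other measured pair, Med13l and Med13, which link the kinase to the core, the share of Med13l was 26.7% to 35.5% without LPS and 30.0% to 34.2% with it. Its log2 ratio differed by -0.05 with LPS (exact permutation p = 0.8, adjusted 0.8) and by -0.15 between genotypes (exact permutation p = 0.314, adjusted 0.629).

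**Figure D3:**
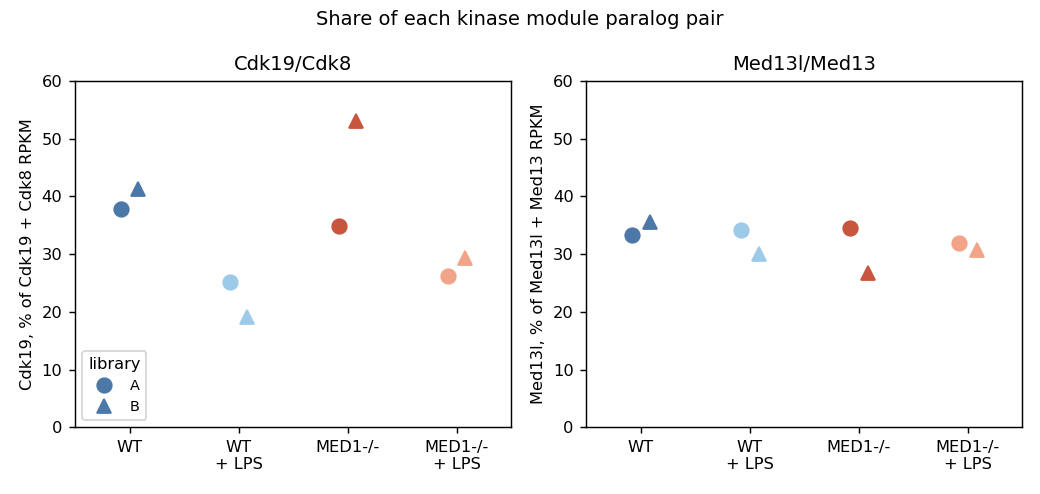
Share of Cdk19 in Cdk19 plus Cdk8, and of Med13l in Med13l plus Med13, in percent of summed RPKM, with a point per library. The 4 LPS libraries lie at 19.1% to 29.3% for Cdk19 and the untreated ones at 34.9% to 53.1%, while the Med13l shares of treated and untreated libraries overlap.

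Tail transcripts gave 2 of the falls among 10 tested members, beside 21.8% of all loci called lower. Med30, a subunit found in animals and not in yeast, stood at 12.4 and 12.5 RPKM in WT untreated A and B and at 8.32 and 3.73 RPKM in WT LPS A and B. In MED1-/- it stood at 13.5 and 16.3 RPKM untreated and 9.42 and 6.65 RPKM with LPS. All LPS values lay below all untreated ones, with the lowest in WT LPS B. Med30 fell by 0.92 on the log2 scale (SE 0.24, adjusted p = 0.0270). The call was lost in 4 of the 8 fits that left out a library, those without WT untreated A, WT untreated B, MED1-/- untreated B or MED1-/- LPS B, and without the filter on low values (adjusted p up to 0.104).

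Med25, a subunit that viral and cellular activators bind, stood at 15.4 and 16.04 RPKM in WT untreated A and B and at 10.05 and 5.78 RPKM in WT LPS A and B. In MED1-/- it stood at 15.8 and 13.6 RPKM untreated and 9.31 and 7.66 RPKM with LPS. Here too the treated and untreated libraries were separate. Med25 fell by 0.84 on the log2 scale (SE 0.19, adjusted p = 0.0175), and lost the call without WT untreated A, WT untreated B or MED1-/- LPS B (adjusted p up to 0.0759). The tail scaffold Med14, which joins head, middle and tail, went the other way in value. It stood at 9.60 and 10.4 RPKM in WT untreated A and B, 13.0 and 18.3 in WT LPS A and B, 9.62 and 12.2 in MED1-/- untreated A and B, and 12.2 and 12.2 in MED1-/- LPS A and B, a difference of 0.37 (SE 0.16, adjusted p = 0.115).

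In the head, Med22, which pairs with Med11, was the 1 member called of 7, beside 30.3% of all loci. It stood at 19.7 and 16.02 RPKM in WT untreated A and B and at 14.9 and 6.89 RPKM in WT LPS A and B. In MED1-/- it stood at 19.6 and 18.9 RPKM untreated and 11.2 and 9.59 RPKM with LPS. The LPS libraries all lay below the untreated ones. Med22 fell by 0.79 on the log2 scale (SE 0.23, adjusted p = 0.0390), but among the 8 fits that left out a library the call was kept only without WT LPS A (adjusted p up to 0.129), and it was lost with median-ratio scaling (-0.51, adjusted p = 0.0719) and without the filter (adjusted p = 0.0684). Its partner Med11 was above every untreated library in all 4 LPS libraries, at 32.7 to 36.4 against 25.9 to 30.8 RPKM, with a difference of 0.26 (SE 0.12, adjusted p = 0.138). Med17, the structural centre of the head, had a difference of -0.38 (SE 0.13, adjusted p = 0.0552).

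Both rises were in the middle module, and they are partners: Med7 and Med21 form the hinge between the ends of the middle. Med7 stood at 8.50 and 7.73 RPKM in WT untreated A and B and at 13.5 and 15.1 RPKM in WT LPS A and B. In MED1-/- it stood at 9.72 and 12.5 RPKM untreated and 12.5 and 15.0 RPKM with LPS. Treated and untreated libraries met at 12.5 RPKM, where MED1-/- untreated B lay just above MED1-/- LPS A. Med7 rose by 0.52 on the log2 scale (SE 0.15, adjusted p = 0.0361), a call kept in 2 of the 8 fits that left out a library, lost without WT untreated A or B, WT LPS B, MED1-/- untreated A, or MED1-/- LPS A or B (adjusted p up to 0.148), and lost without the filter (adjusted p = 0.0538).

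Med21 stood at 28.7 and 22.1 RPKM in WT untreated A and B and at 37.8 and 40.7 RPKM in WT LPS A and B. In MED1-/- it stood at 27.1 and 21.6 RPKM untreated and 31.2 and 30.6 RPKM with LPS. Every LPS library was above every untreated library. Med21 rose by 0.48 (SE 0.15, adjusted p = 0.0452), and this call too was kept in 2 of the 8 fits, lost without WT untreated A or B, WT LPS B, MED1-/- untreated B, or MED1-/- LPS A or B (adjusted p up to 0.163). It was also lost without the filter on low values (adjusted p = 0.0533) and without the variance trend (adjusted p = 0.0529). On mm9, Med7 lies on chromosome 11 from 46250427 to 46256223 and Med21 on chromosome 6 from 146591069 to 146599124, both on the plus strand. Med7 overlaps the lincRNA 2310031A07Rik, and Med21 the end of Tm7sf3 and the pseudogene Gm6654, all on the opposite strand. Whether the quantification used strand is not stated, so reads of these neighbours cannot be told apart from those of Med7 and Med21. The same holds for Cdk19, and for other members that overlap annotated genes. Among these are Med1 (pseudogene Gm11604, opposite strand), Med13 (4632419I22Rik, opposite strand) and Cdk8 (pseudogene Gm15739, same strand).

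Promoters were sought for all called members, whether they rose or fell. Those of Med21 and Med7 are shown because only they gave a usable stretch. The others had no usable entry or a window lying mostly inside an annotated gene. Each run is the stretch directly before the gene start on the plus strand, from RefSeq on GRCm38.p6, 250 bases for Med21 (chr6:146642329-146642578) and 239 bases for Med7 (chr11:46436697-46436935). Capitals mark CCAAT, the GC box GGGCGG and TATAAA on either strand, and in Med21 an ATTGG and a CCAAT lie side by side.
Med21: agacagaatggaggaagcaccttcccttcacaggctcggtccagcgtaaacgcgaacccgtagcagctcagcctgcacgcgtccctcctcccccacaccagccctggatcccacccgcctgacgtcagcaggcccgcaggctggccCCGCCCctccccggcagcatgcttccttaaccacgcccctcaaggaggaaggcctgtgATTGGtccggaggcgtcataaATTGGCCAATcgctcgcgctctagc
Med7: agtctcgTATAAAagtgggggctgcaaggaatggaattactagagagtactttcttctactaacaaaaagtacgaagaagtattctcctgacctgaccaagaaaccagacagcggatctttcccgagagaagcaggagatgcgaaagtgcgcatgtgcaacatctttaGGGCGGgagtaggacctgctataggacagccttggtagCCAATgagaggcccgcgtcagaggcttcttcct

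CCAAT was found in both of these promoters, in 11 of the 28 member promoters that could be matched, and in 34.5% of 27025 mouse promoters of up to the same length. The GC box GGGCGG was in both as well, in 18 of 28 member promoters and in 33% of all promoters. TATAAA was in that of Med7, in 3 of 28 and in 13%. The NF-kB consensus was found in 2 of 28 member promoters, those of Ccnc and Med29, and in 7.03% of all. These are matches of letters only. The counts over members and over all promoters took windows of up to 250 bases, also where a window lay inside an annotated gene.

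The 26 tested members that were not called had differences between -0.38 and 0.37. Every LPS library was below every untreated library in 7 members (Cdk19, Med30, Med25, Med22, Med17, Med16 and Med18), beside 30% of all loci, and above in 2 (Med11 and Med21), beside 9.2%. In all 4 pairs of the same genotype and letter 10 members were lower with LPS, beside 43.4% of loci, and 6 were higher, beside 13.8%. By module the median difference was -0.07 in the head, 0.06 in the middle, -0.21 in the tail and -0.14 in the kinase module. With Med27 to Med30 counted in the head, the head median was -0.21 and the tail median -0.13.

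**Figure D4:**
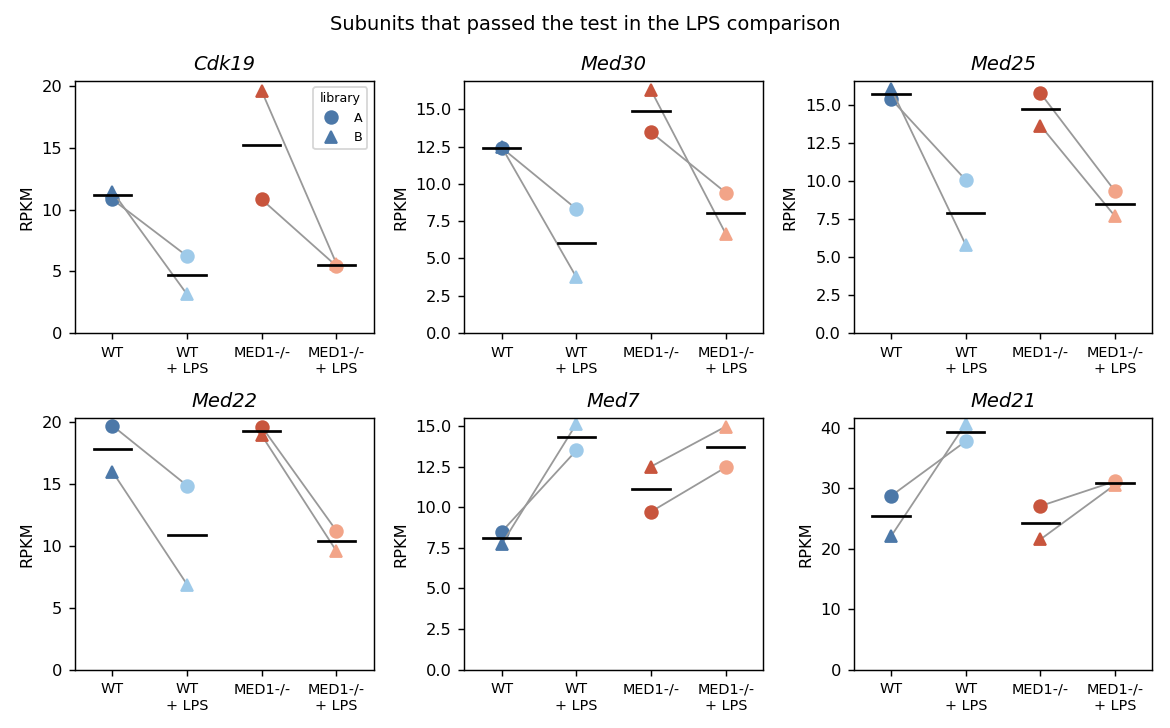
RPKM of the 6 members called for LPS in each of the 8 libraries. Cdk19, Med30, Med25 and Med22 are lower and Med21 higher in all 4 LPS libraries, while Med7 treated and untreated libraries meet at 12.5 RPKM.

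Within each genotype, where only 2 libraries stand against 2, no member was called by limma for LPS in WT, beside 6.31% of all loci, and none for LPS in MED1-/-, beside 6.62%. At an unadjusted p under 0.05 there were 6 and 5 members, beside 29.3% and 29.2% of loci. With the letters A and B as a block in the fit, Med7 (adjusted p = 0.0478) and Med25 (adjusted p = 0.0372) were called in WT. The sign of the LPS difference was the same in both genotypes for 27 of 32 members. Pearson's r between the genotypes was 0.898 across the 32 members, given as a description since members are not replicates. Neither value was computed over all loci, whose median LPS difference was -0.25 in WT and -0.28 in MED1-/-.

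MED1-/- libraries were then compared with WT. No subunit was called by limma in the average over treatments, beside 0.0355% of all loci, and none had an unadjusted p under 0.05, beside 4.19%. Member differences ran from -0.20 for Med21 to 0.36 for Med13, with a median of 0.05 against 0.06 over all loci. The median half-width of the 95% intervals was 0.36 on the log2 scale, and the intervals together spanned -0.54 to 0.89. None was called without treatment (0.0266% of loci) or with LPS (0.00887% of loci), and none had an unadjusted p under 0.05 in either, beside 0.834% and 4.42% of loci.

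The largest values above WT were in the kinase module and tail. Med13 stood at 17.8 and 16.4 RPKM in WT untreated A and B, 20.2 and 18.6 in WT LPS A and B, 17.7 and 32.4 in MED1-/- untreated A and B, and 23.5 and 23.4 in MED1-/- LPS A and B. Its difference was 0.36 (SE 0.20). It was 0.57 without MED1-/- untreated A (adjusted p = 0.186) and 0.15 without MED1-/- untreated B, the library with the highest B cell and mast cell marker sums. Whether those cells have a part in the value was not tested. Med28 of the tail stood at 11.02 and 10.8 RPKM in WT untreated A and B, 11.5 and 7.26 in WT LPS A and B, 15.2 and 12.9 in MED1-/- untreated A and B, and 12.2 and 12.01 in MED1-/- LPS A and B. It was the only member whose MED1-/- libraries all lay above all WT libraries, beside 1.01% of loci, with a difference of 0.35 (SE 0.17, unadjusted p = 0.0751), or 0.20 without WT LPS B. Med30 had a difference of 0.33 (SE 0.24).

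All 6 tested kinase module members had a higher value in MED1-/-, with a median difference of 0.18, beside 0.06 over all loci. A higher value was also seen in 21 of all 32 tested members and in 26 of 31 general transcription factor genes. The share of all loci with a higher value was not counted. The value of Cdk8 was close to 0 (0.01) and below the median over all loci. With LPS alone 4 of 6 were higher, with Cdk8 at -0.11 and Ccnc, the cyclin, at -0.05. Over treatments, 5 of 6 were higher with median-ratio scaling (median 0.10) and 4 of 6 without WT LPS B (median 0.08). The median was 0.31 without WT LPS A and 0.10 without MED1-/- untreated B. Med13l, for example, stood at 8.88 and 9.06 RPKM in WT untreated A and B, 10.5 and 7.97 in WT LPS A and B, 9.33 and 11.8 in MED1-/- untreated A and B, and 11.04 and 10.4 in MED1-/- LPS A and B. WT untreated lay below both MED1-/- groups, but WT LPS A lay among them, and the difference between genotypes was 0.21 (SE 0.15).

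The largest values below WT were Med21 at -0.20 (SE 0.15), Med20 at -0.16 (SE 0.14) and Med9 at -0.15 (SE 0.15). Med20, the head partner of Med18, stood at 15.4 and 14.5 RPKM in WT untreated A and B, 16.5 and 14.6 in WT LPS A and B, 14.5 and 14.4 in MED1-/- untreated A and B, and 14.5 and 10.9 in MED1-/- LPS A and B. Med9 of the middle stood at 6.14 and 6.34 RPKM in WT untreated A and B, 5.36 and 3.93 in WT LPS A and B, 5.75 and 5.08 in MED1-/- untreated A and B, and 3.98 and 4.29 in MED1-/- LPS A and B. Genotypes overlapped for both. Lower values in all 4 pairs of the same letter and treatment were seen for 4 members (Med1, Med11, Med20 and Med21), beside 5.3% of loci. Higher values in all 4 were seen for 4 others (Med26, Med28, Med30 and Med13l), beside 12.3% of loci.

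**Figure D5:**
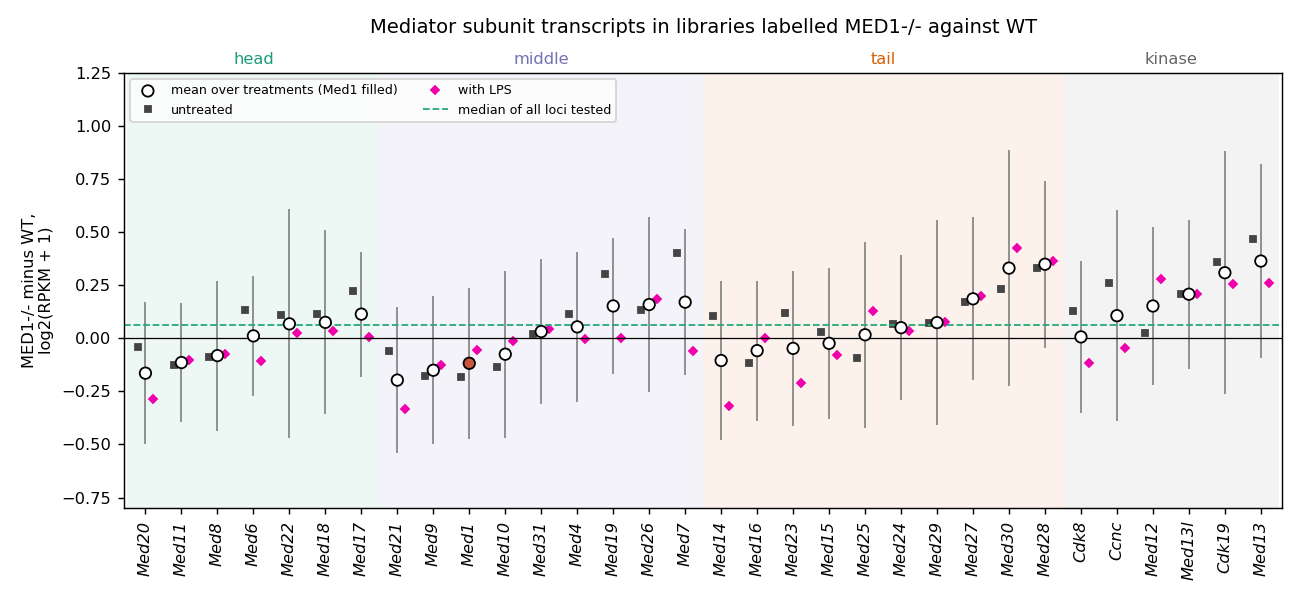
Difference between MED1-/- and WT libraries in log2(RPKM + 1) for the 32 tested members, averaged over treatments, with 95% intervals. All values lie between -0.20 and 0.36, and none was called.

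Whether LPS acted differently in MED1-/- was tested as an interaction, the LPS difference in MED1-/- minus that in WT. No member was called by limma (adjusted p = 0.9999 at the lowest), beside 0.0355% of loci, and none had an unadjusted p under 0.05, beside 1.63%. The lowest interactions were -0.46 for Med7 (SE 0.29) and -0.42 for Med14 (SE 0.32), and the highest were 0.26 for Med12 (SE 0.32) and 0.22 for Med25 (SE 0.37).

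The partners of Mediator in transcription were read in the same LPS comparison. Among 13 RNA polymerase II subunits 0 rose and 5 fell, beside 8.46% of all loci higher and 21.8% lower, with a median of -0.45, among them Polr2e (-1.36, SE 0.25, adjusted p = 0.0105), Polr2i (-1.15), Polr2f (-0.74) and Polr2j (-0.49). With median-ratio scaling 2 were called lower and the median was -0.16. Leaving out a library gave 1 to 8 falls, with 1 without WT untreated A or MED1-/- LPS B and 8 without WT LPS A. Among 31 general transcription factor genes 0 rose and 2 fell, Gtf2h2 (-0.91) and Taf6 (-0.62), with a median of -0.19. With median-ratio scaling 1 was called higher, 1 lower, and the median was 0.09. Leaving out a library gave 0 to 6 falls, with 0 without either WT untreated library or MED1-/- LPS B and 6 without WT LPS A. Among 10 cohesin genes, whose products hold enhancers and promoters together with Mediator, 0 rose and 2 fell, Mau2 (-0.49) and Smc1a (-0.47), with a median of -0.23, and with median-ratio scaling none was called and the median was 0.06. Leaving out a library gave 0 to 4 falls, with 4 without MED1-/- untreated A, 2 without WT LPS A and 0 without any of the others. Among 14 elongation factor genes, 2 rose and 1 fell, with a median of -0.01, or 3 and 1 with a median of 0.27 under median-ratio scaling. Ell2, of the super elongation complex that Med26 recruits, rose from 25.1, 17.6, 27.2 and 17.6 RPKM in WT untreated A and B and MED1-/- untreated A and B to 67.9, 72.6, 61.2 and 70.3 RPKM in the LPS libraries of the same genotype and letter. This was a rise of 1.62 (SE 0.19, adjusted p = 0.00243), and Aff1, a scaffold of such complexes, rose by 0.86 (adjusted p = 0.00704). Mllt3 fell by 0.82, a call that some fits with a library left out did not keep. Its values were low, at 2.09 to 3.81 RPKM in the untreated libraries and 0.779 to 1.69 RPKM in the LPS libraries.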

How the data were processed

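RNA was profiled in 8 libraries of mouse peritoneal macrophages. The authors deposited RPKM values, that is, reads divided by transcript length and by the mapped reads of the library. Per the submitters' processing notes, reads were aligned with TopHat2 2.0.14 and quantified with Cufflinks 2.2.1 on mm9. The sources used here do not state the annotation, strand setting or filters. The table of 24192 lines held 23735 loci, each used once, and all sample columns were used.

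No read counts were given. Relative depths were the most common ratios between libraries at loci with low values. On that scale, low values of a locus fell on whole multiples of 1 step at 97.3% of 2624 loci (tolerance 0.1 read plus 0.02 per read). The step could be the smallest value or a simple fraction of it, and the tolerance grew with the value. A high share was thus partly built in, and it is not an independent check of the depths. Genes with 1 annotated transcript in GENCODE vM1 (589 genes) set the deepest library at about 14.1 M mapped reads (quartiles 13.02 and 14.7). Lengths and positions came from that annotation, matched by symbol.

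A locus was tested where 2 or more libraries reached 1 RPKM, and the 11272 such loci were analysed as log2(RPKM + 1), scaled as deposited, in limma 3.58.1 (R 4.3.3). One mean per group was fitted over all 8 libraries with variances that follow a trend with expression. Tests were two-sided, and a call is a Benjamini-Hochberg adjusted p under 0.05 over all loci. Every adjusted p with no other test named is from this fit. Differences on this scale understate changes of low values. Permutation tests and figures used Python 3.11.15, scipy 1.17.1 and matplotlib 3.10.9.

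The members and lists were chosen with earlier results of these data known. Values in every library are given for Med1, called members, the 3 largest rises and falls by LPS and by genotype, the 2 largest interactions in each direction, and the paralog pairs. Up to 4 called genes of each other list are named. Med11, Med17, Med6 and a few others outside this rule were chosen after their values were seen. Where pairs of libraries are compared, the letters A and B were taken as pairing them. Deviations from group means correlated within letters in all 6 pairs of groups (r from 0.20 to 0.41 over 11272 loci). The main fit did not use the letters, so its variance includes any difference between them. The labels do not say what the letters mean. Alternatives were a pseudocount of 0.1, no filter, median-ratio scaling, the letter as a block, no variance trend, and leaving out each library in turn. Permuting the paralog ratios within letter pairs was added after seeing the data. Promoter sequences are from RefSeq (GRCm38.p6), matched by symbol for 28 members, and only coordinates printed with a promoter are on that build.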

Additional observations from a re-analysis of the deposited data

Results flagged for a closer look

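Groups of 2 libraries are too small to test any library as an outlier. Of the 32 tested members, 4 had effects that moved one way in both letters under 1 condition and the opposite way in both letters under the other. The difference itself was tested as the interaction, and none passed (adjusted p = 0.9999 by limma for each). The share of all loci with this pattern was not counted, so the number of members is not a result about Mediator. Med6 of the head differed by LPS in WT by 0.11 and 0.01 in letters A and B, and in MED1-/- by -0.09 and -0.28, with an interaction of -0.24. Equally, MED1-/- minus WT was 0.10 and 0.17 for Med6 without LPS and -0.10 and -0.12 with it, the same interaction of -0.24 (unadjusted p = 0.348). Med20 differed by LPS in WT by 0.09 and 0.01, and in MED1-/- by -0.00 and -0.38, an interaction of -0.24 (unadjusted p = 0.419). MED1-/- minus WT was 0.18 and 0.63 for Med7 without LPS and -0.11 and -0.02 with it, an interaction of -0.46 (unadjusted p = 0.156). For Med14 it was 0.00 and 0.21 without LPS and -0.09 and -0.55 with it, an interaction of -0.42 (unadjusted p = 0.223).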

How the results depend on the processing

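The number of members called for LPS averaged over genotypes was 6, and it was 2 without the filter on low values and 0 to 9 when a library was left out. A count of 0 came without MED1-/- LPS B, and 1 without either WT untreated library. For LPS in WT, 0 became 1 with median-ratio scaling (Med7), 2 with the letters as a replicate block (Med7 and Med25), and 0 to 5 when a library was left out, with 5 without WT LPS A. For LPS in MED1-/-, leaving out a library gave 0 to 3, with 3 without either WT LPS library. The replicate block changed no other call of a member. No member was called for genotype or interaction under any of the 13 alternatives. Of these, Med1 kept a difference between -0.21 and -0.02. Over all alternatives and comparisons, 76 log2 differences of named genes lost a call, 17 gained 1, 84 that were not called changed sign, and none that was called did. The loci called for LPS averaged over genotypes (3410) numbered 1121 to 4528 when a library was left out. In WT, 711 became 270 without the filter, 1818 with the block and 7 to 2244 with a library left out, and in MED1-/-, 746 became 262, 1611 and 20 to 1554. A left-out library leaves a group with 1, which is assumed to vary like the others. The cause was not tested. Depth limits Med12l most.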

Other observations

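LPS differences were more negative in letter B than in letter A over all tested loci, with medians of -0.08 in WT A, -0.41 in WT B, -0.17 in MED1-/- A and -0.41 in MED1-/- B. Cdk19 differed by -0.71 in WT A and -0.88 in MED1-/- A, and by -1.59 in WT B and -1.64 in MED1-/- B. Relative to the median of all loci in the same pair, Cdk19 lay at -0.63 and -0.71 in the A pairs and at -1.19 and -1.23 in the B pairs. On the same relative scale Med30 lay at -0.45 and -0.31 in A and at -1.10 and -0.76 in B. Med25 and Med22 were further below the median in B only in WT, at -0.49 and -0.31 in A and -0.92 and -0.70 in B. In MED1-/- the order was the reverse, at -0.54 and -0.59 in A and -0.35 and -0.50 in B. Il6, a cytokine gene induced by LPS, reached 106 and 484 RPKM in the LPS A libraries of WT and MED1-/- and 2144 and 2423 RPKM in the LPS B libraries. Mast cell markers were also higher in the B libraries, and their part in these values was not tested. These patterns were noticed after the values were seen.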
